A study of Mus musculus with 12 samples.

Results

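The collagen genes of the mouse were followed across sorted mesenchymal cells of the healthy uterus. Members were all genes of the deposited count table whose whole symbol consists of Col, digits, the letter a and digits, and 44 of the 47729 genes in the table met this rule. The rule used no measured value. The libraries came from female Pdgfrb-BAC-eGFP mice, whose green fluorescent protein (GFP) is driven by the regulatory sequence of Pdgfrb, the platelet-derived growth factor receptor of perivascular and stromal cells, carried on a bacterial artificial chromosome. GFPtotal libraries (6, titled Naive) held all GFP-positive cells, a mixture of GFP-high perivascular cells and GFP-low stromal fibroblasts in proportions that are not given. GFPlow libraries (6, titled Stromal and labelled GFPdim) held the GFP-low cells alone. All groups shared the strain, the tissue, the enzymatic digestion and the sort, and the study names 12 healthy cycling mice. No label ties a library to a mouse, so the p-values describe how these libraries vary and no more. The study used the comparison to infer the profile of the GFP-high cells, which are not analysed here on their own.

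Collagens are extracellular proteins made of 3 chains wound into a triple helix, and the class of a collagen is set by how its molecules assemble. Fibrillar collagens form the rope-like fibrils of connective tissue, network collagens form sheets such as the basement membrane, and microfibrillar type VI collagen forms beaded filaments near cells. Fibril-associated collagens with interrupted triple helices (FACIT) decorate the fibril surface, and transmembrane collagens are anchored in the cell membrane. In the uterus, stromal cells lay down fibrils that are remodelled over the cycle and in pregnancy, and pericytes share a basement membrane with the endothelium.

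GFPtotal libraries held 12631266 to 14950639 counts and GFPlow libraries 14339804 to 18425596, and 6978218 to 10834905 of these came from nuclear genes. GFPtotal 3, 4 and 5 stood apart from every other library on the first principal component, and the column header of GFPlow 6 carried another code (N8) than its title, the only header of the 12 that did not match its title. Levels are given as CPM, the counts scaled to a common library size. Pdgfrb was between 78.9 and 171 CPM in GFPtotal libraries and between 50.7 and 87.1 CPM in GFPlow libraries. The summed CPM of the 8 pericyte markers was 865 to 1518 in GFPtotal and 4.12 to 16.7 in GFPlow, with the highest GFPlow sum in GFPlow 6, and 6 of 6 tested markers were called higher. The summed CPM of smooth muscle markers ranged from 423 to 705 in GFPtotal and from 274 to 387 in GFPlow, with 3 of 6 tested called higher. Most of the GFPlow sum was Synpo2 (GFPtotal 264 to 346 CPM, GFPlow 236 to 366 CPM). Acta2 (GFPtotal 35.7 to 95.6 CPM, GFPlow 0.566 to 5.16 CPM) and Myh11 (GFPtotal 73.6 to 182 CPM, GFPlow 0.316 to 9.07 CPM) were far apart. Actg2 and Lmod1 did not overlap between groups either. Des (GFPtotal 22.4 to 51.1 CPM, GFPlow 16.2 to 49.6 CPM), Tagln (GFPtotal 1.30 to 14.0 CPM, GFPlow 0.800 to 3.26 CPM) and Cnn1 overlapped. The summed CPM of fibroblast markers ranged from 3788 to 4154 in GFPtotal and from 2170 to 3937 in GFPlow, with 1 of 7 called higher. In every library the epithelial markers summed to at most 12.0 CPM, leukocyte markers to at most 2.66 CPM (C1qa at 0) and Schwann cell markers to at most 9.71 CPM. Endothelial markers summed to at most 60.2 CPM (Cldn5 at 0, and 1 of 4 tested called lower). Mesothelial markers summed to at most 111 CPM (mostly Wt1, with Msln and Upk3b at 0). That highest mesothelial sum was in GFPlow 6, where Muc16 was at 9.29 CPM, against at most 1.18 CPM in any other library. In libraries of sorted cells, fewer cells of a type and less RNA per cell cannot be told apart, and the part of these markers in the results on collagens was not tested.

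Collagen transcripts made up 4.69% to 8.29% of the nuclear counts in GFPtotal libraries and 4.02% to 5.75% in GFPlow libraries. Of the 44 members, 36 passed edgeR's filter on low counts and were tested, and 8 did not. In GFPtotal, 7 members were called higher than in GFPlow and 0 lower by edgeR's quasi-likelihood test at a Benjamini-Hochberg adjusted p below 0.05. That is 19.4% of the members tested, against 4.55% of all 14523 genes tested called higher, 0.854% called lower and 5.41% called in either direction. Without GFPlow 6 the test called 6 members higher, where 3.62% of all genes tested were called higher and 0.469% lower. Without GFPtotal 3, 4 and 5 it called 7 of 40 tested members higher and 1 lower, against 1.56% and 0.318% of all genes tested. With all 12 libraries the 7 genes were the fibril formers Col3a1 and Col5a2, the basement membrane genes Col4a1 and Col4a5, the fibril-associated Col12a1 and Col14a1, and Col15a1. Unadjusted p-values below 0.05 (edgeR) were found for 12 of the 36 tested members in the higher and 4 in the lower direction. Over all 14523 genes tested, 1862 were below 0.05 in the higher and 1027 in the lower direction. DESeq2 called 8 members higher and 3 lower, against 7.28% and 2.46% of all genes with an adjusted p, limma-voom 7 and 2, against 4.93% and 1.88%, and edgeR scaled by total library size alone 6 and 2, against 3.48% and 1.77%. The median log2 fold change was 0.06 over the tested members and -0.00060 over all genes tested. For 7 members every GFPtotal library lay above every GFPlow library, and for 0 every GFPtotal library lay below, against 2.86% and 0.806% of all genes tested. These 7 included Col4a2, which was not called, and lacked Col4a5.

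**Figure D1:**
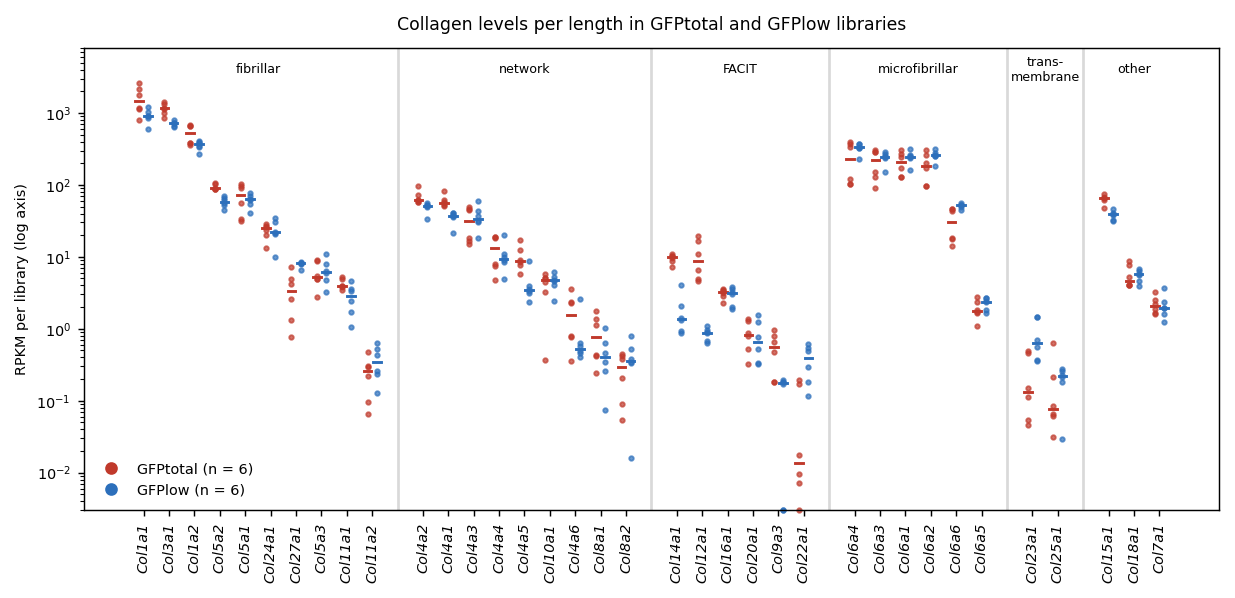
Level per length of the 36 tested collagen genes, as CPM per 1000 bases of exon (RPKM, log axis), by class along the horizontal axis. Each point is a library, GFPtotal left of GFPlow for each gene, lines mark group medians, and values of 0 are drawn at the foot of the axis. Levels span from medians of 1468 (GFPtotal) and 901 (GFPlow) RPKM for Col1a1 to below 1 RPKM for several genes.

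**Figure D2:**
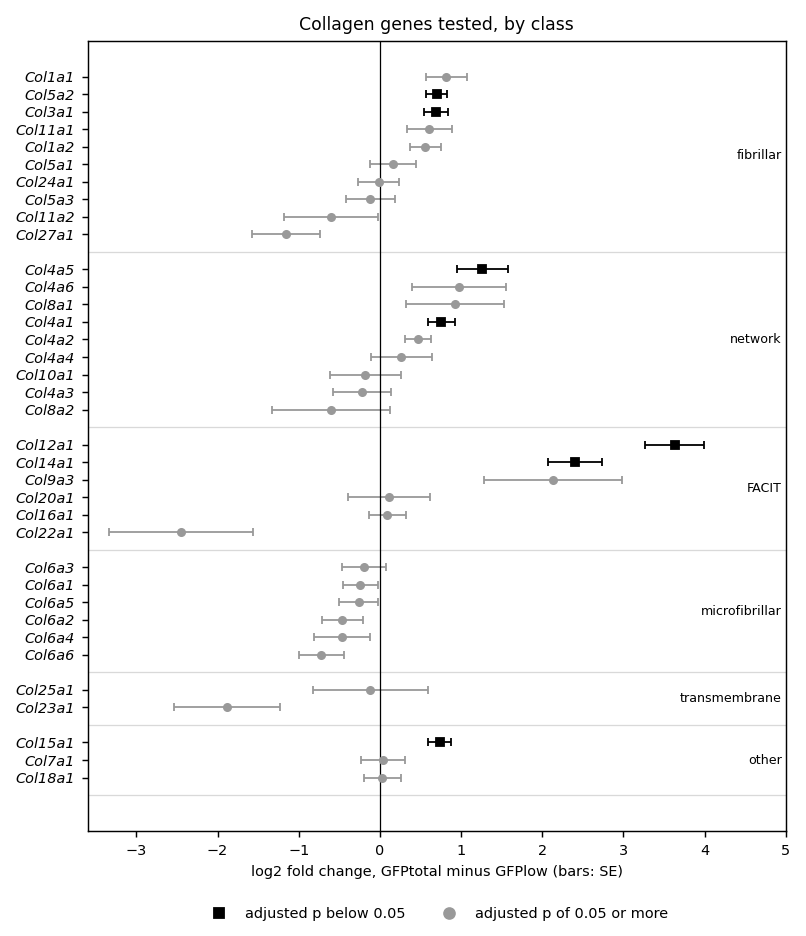
Fold change of each tested collagen gene on the log2 scale, GFPtotal minus GFPlow, with its standard error (SE), grouped by class. Black squares are the 7 genes with an adjusted p below 0.05, all to the right of 0, and the 6 microfibrillar genes all lie to the left of 0 without passing the test.

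Fibrillar collagens held the most abundant members. Of 11 fibrillar genes 10 were tested, 2 were called higher and 0 lower, and their median log2 fold change was 0.36. Per length over the union of their exons, Col1a1 had the 2nd highest level of all nuclear genes in GFPtotal and the 5th in GFPlow, Col3a1 the 4th and the 7th, and Col1a2 the 11th and the 17th. The order of Col1a1 and Col3a1 depends on the length used. With the length of the longest protein-coding transcript the median of Col3a1 was 2037 RPKM in GFPtotal and 1280 RPKM in GFPlow, above Col1a1 at 1625 and 997 RPKM.

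Col3a1 (GRCm38, chr1:45311538-45349706, plus strand), the chain of type III collagen that is abundant in distensible tissues, rose in GFPtotal. Its level was 8338, 11333 and 13934 CPM (lowest, median and highest) in GFPtotal libraries and 6250, 7123 and 7840 CPM in GFPlow libraries. The log2 fold change was 0.69 (SE 0.14, adjusted p = 0.00782, edgeR). The groups did not overlap, and GFPtotal 3, 4 and 5 at 8338 to 11369 CPM included the lowest GFPtotal values. Its promoter window in RefSeq (250 bases before to 50 after the start, GRCm38.p6, chr1:45311288-45311587, plus strand) is shown because Col3a1 was the most abundant member that passed the test. The motif TATAAA is in capitals and starts 117 bases before the start, the only match there among the motifs searched.
Col3a1: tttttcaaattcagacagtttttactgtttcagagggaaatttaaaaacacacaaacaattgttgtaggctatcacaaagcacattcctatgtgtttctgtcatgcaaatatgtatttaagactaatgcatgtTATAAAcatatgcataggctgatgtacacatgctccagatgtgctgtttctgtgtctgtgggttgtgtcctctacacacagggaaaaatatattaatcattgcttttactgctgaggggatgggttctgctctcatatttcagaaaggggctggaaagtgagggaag
The search covered, on both strands, the TATA box letters TATAAA, the CCAAT box letters CCAAT, the GC box letters GGGCGG, and the CArG box by name. They were found in 5, 13, 23 and 1 of the 38 windows held for 35 members, against 13.6%, 37.4%, 35.7% and 1.63% of the 32851 mouse windows in the table.

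Col5a2, a chain of type V collagen that takes part in starting type I fibrils, lies next to Col3a1 on the opposite strand (chr1:45374321-45503282), with 24614 bases between their ends. It stood at 835, 856 and 1021 CPM in GFPtotal and 425, 560 and 664 CPM in GFPlow (log2 fold change 0.70, SE 0.13, adjusted p = 0.00485, edgeR). All 6 GFPtotal libraries lay above all 6 GFPlow libraries, and GFPtotal 3, 4 and 5 (835 to 1021 CPM) spanned nearly the same range as GFPtotal 1, 2 and 6 (842 to 1001 CPM). Both neighbours were called without GFPtotal 3, 4 and 5 (0.84 for Col3a1 and 0.68 for Col5a2) and without GFPlow 6 (0.69 and 0.66).

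The partner chain Col5a1 was split within GFPtotal. It stood at 264, 622 and 872 CPM in GFPtotal and 346, 533 and 654 CPM in GFPlow (log2 fold change 0.16, SE 0.28, adjusted p = 0.81, edgeR). It was at 264 to 473 CPM in GFPtotal 3, 4 and 5, and in GFPtotal 1, 2 and 6 at 772 to 872 CPM, above every GFPlow library. The value was 0.0075 without GFPtotal 1, 0.31 without GFPtotal 5 and 0.64 without GFPtotal 3, 4 and 5 (adjusted p = 0.0573).

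The genes of type I collagen, the main fibril of connective tissue, showed the same split within GFPtotal. Col1a1, which encodes the alpha-1 chain, stood at 5307, 9636 and 17118 CPM in GFPtotal and 3975, 5913 and 7900 CPM in GFPlow (log2 fold change 0.82, SE 0.25, adjusted p = 0.0689, edgeR). GFPtotal 1, 2 and 6 were at 11669 to 17118 CPM, above every GFPlow library, and GFPtotal 3, 4 and 5 at 5307 to 7603 CPM lay within the GFPlow range. Col1a2, the alpha-2 chain, stood at 4460, 6436 and 8471 CPM in GFPtotal and 3301, 4527 and 5018 CPM in GFPlow (log2 fold change 0.56, SE 0.19, adjusted p = 0.103, edgeR). Again GFPtotal 3, 4 and 5 lay at 4460 to 4798 CPM, and GFPtotal 1, 2 and 6 at 8074 to 8471 CPM, above every GFPlow library. Without GFPtotal 3, 4 and 5 both passed the test, Col1a1 at 1.24 (adjusted p = 0.00077) and Col1a2 at 0.89 (adjusted p = 0.0014), in a fit that tested 15703 genes. Col1a1 also passed with total library size, with DESeq2 and without GFPtotal 5.

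Some cell type markers, those of the sorted cells among them, were also apart between these libraries. Summed pericyte markers were at 1245 to 1518 CPM in libraries 3, 4 and 5 of GFPtotal and at 865 to 1173 CPM in its libraries 1, 2 and 6, and smooth muscle markers at 593 to 705 CPM in libraries 3, 4 and 5 and 423 to 466 CPM in 1, 2 and 6. The low sums of the epithelial markers (8.15 to 12.0 CPM against 0.713 to 5.49 CPM) and the Schwann cell markers (6.14 to 9.71 CPM against 1.93 to 4.99 CPM) were also higher in libraries 3, 4 and 5. Cdh1 was the largest part of the first in libraries 3, 4 and 5 (5.77 to 6.36 CPM) and Mbp of the second (4.72 to 6.65 CPM), with Sox10 at 0 in all GFPtotal libraries. Of the mesothelial list Wt1 alone was above 2 CPM in GFPtotal, at 67.1 to 79.5 CPM in libraries 3, 4 and 5 and 43.2 to 46.8 CPM in 1, 2 and 6. The summed fibroblast markers overlapped between these libraries, but Pdgfra was higher in libraries 3, 4 and 5 (610 to 672 CPM, against 370, 391.9 and 335 CPM in libraries 1, 2 and 6) and Lum was lower (343 to 535 CPM, against 835 to 938 CPM). Of the same list Fbln1 (22.4 to 32.1 CPM against 7.04 to 8.11 CPM) and, narrowly, Dcn (2275 to 2467 against 2219 to 2264 CPM) were also higher there. The sums of the endothelial and leukocyte markers overlapped, but endothelial genes moved both ways. In libraries 3, 4 and 5 Tek (14.2 to 17.5 against 3.24 to 10.2 CPM), Emcn (13.0 to 30.9 against 7.27 to 11.8 CPM) and Vwf (1.64 to 3.93 against 0.243 to 0.713 CPM) were higher. Kdr was lower (3.01 to 6.32 against 11.1 to 24.0 CPM). Mitochondrial genes took 32.4% to 40.5% of the counts in libraries 3, 4 and 5 of GFPtotal and 45.3% to 49.0% in 1, 2 and 6. In GFPlow libraries they took 35.1% to 45.7%. The TMM factors that scale library size were 0.991 to 1.202 in GFPtotal 3, 4 and 5 and 0.823 to 0.867 in 1, 2 and 6. The part of the markers and of the mitochondrial share in this split of the collagen values was not tested. No label other than the replicate number tells GFPtotal 3, 4 and 5 from GFPtotal 1, 2 and 6.

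Among the other fibrillar genes Col27a1, a collagen known from cartilage, had the lowest fold change. It stood at 10.005, 44.3 and 95.4 CPM in GFPtotal and 84.5, 106 and 109 CPM in GFPlow (log2 fold change -1.16, SE 0.42, adjusted p = 0.134, edgeR). Only GFPtotal 6 reached the GFPlow range, and GFPlow 1 was the lowest GFPlow library. The difference passed the threshold with DESeq2, with limma-voom, with total library size as the scaling and without GFPtotal 6, with values of -1.60 to -1.18. It was -0.54 (adjusted p = 0.221) without GFPtotal 3, 4 and 5, and -1.51 to -0.95 on leaving out single libraries. Col24a1 (102, 189 and 219 CPM in GFPtotal, 75.8, 167 and 267 CPM in GFPlow), Col5a3, Col11a1 and Col11a2 overlapped between groups, with log2 fold changes of -0.60 to 0.61. Col2a1, the cartilage collagen, had 2 counts in all 12 libraries and was not tested.

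**Figure D3:**
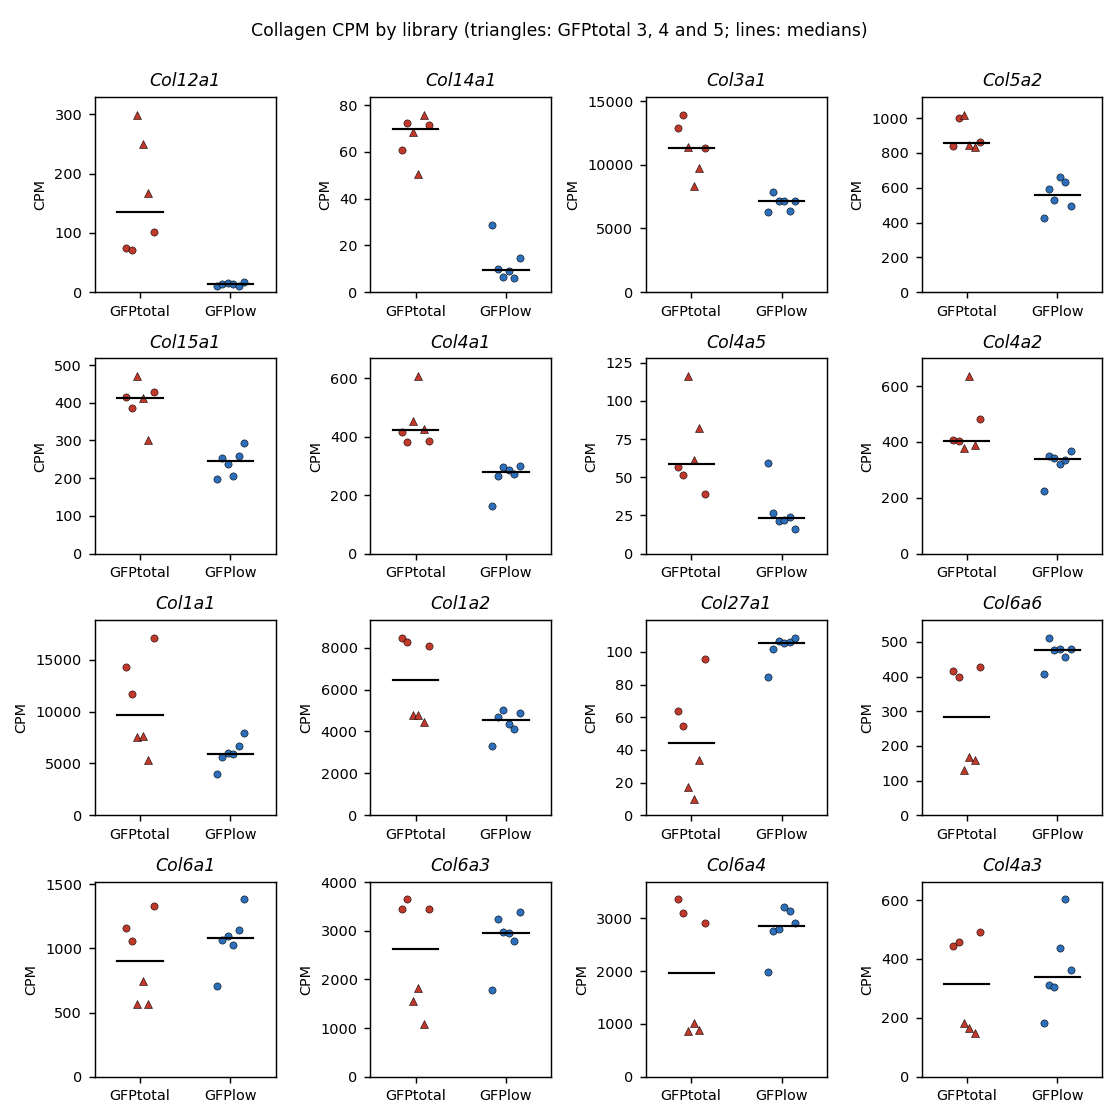
CPM of 16 collagen genes by library, GFPtotal left of GFPlow in each panel, with lines at group medians and vertical axes from 0. Triangles are GFPtotal 3, 4 and 5, which lie below the other GFPtotal libraries for Col1a1 (5307 to 7603 against 11669 to 17118 CPM) and above them for Col12a1 (168 to 300 against 71.0 to 101 CPM).

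The FACIT genes held the widest differences. Of 9 genes 6 were tested, 2 were called higher and 0 lower, and the median log2 fold change was 1.12. The values ran from -2.45 to 3.63, and the median falls between Col20a1 (0.11) and Col9a3 (2.13), neither of them called. Col12a1 (chr9:79598991-79718831, minus strand) encodes type XII collagen, which binds to type I fibrils in tissues under tension. It stood at 71.0, 135 and 300 CPM in GFPtotal and 9.55, 13.3 and 16.7 CPM in GFPlow (log2 fold change 3.63, SE 0.37, adjusted p = 3.35e-05, edgeR). The lowest GFPtotal library lay above the highest GFPlow library, which was GFPlow 6, and GFPtotal 3, 4 and 5 were the 3 highest libraries at 168 to 300 CPM. The value was 2.65 without GFPtotal 3, 4 and 5 and 3.71 without GFPlow 6.

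Col14a1 (chr15:55307750-55520803, plus strand) encodes type XIV collagen, another fibril-surface collagen, which is known to limit fibril growth. It stood at 50.5, 69.9 and 75.9 CPM in GFPtotal and 6.19, 9.58 and 28.7 CPM in GFPlow (log2 fold change 2.40, SE 0.33, adjusted p = 0.000397, edgeR). The groups did not overlap, GFPlow 1 was the highest GFPlow library, and GFPtotal 3, 4 and 5 spanned the whole GFPtotal range. Without GFPtotal 3, 4 and 5 the value was 2.42, and without GFPlow 6 it was 2.45. No window of the promoter table matched Col12a1, Col14a1 or Col5a2.

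The remaining FACIT genes did not pass the test. Col16a1, a minor component near fibrils and basement membranes, stood at 15.5, 21.9 and 24.4 CPM in GFPtotal and 12.7, 21.4 and 25.9 CPM in GFPlow (log2 fold change 0.09, SE 0.23, adjusted p = 0.878, edgeR), with overlapping groups. Col22a1, known from tissue junctions such as the muscle-tendon border, had 55 counts over the GFPtotal libraries and 326 over the GFPlow libraries (log2 fold change -2.45, SE 0.89, adjusted p = 0.128, edgeR). Its levels were 0, 0.126 and 1.78 CPM in GFPtotal and 1.09, 3.61 and 5.66 CPM in GFPlow, and GFPtotal 3 and 4 lay within the GFPlow range. It was called lower with DESeq2 and without GFPtotal 3, 4 and 5 (-5.26, adjusted p = 0.0126, edgeR, where 0.318% of genes were called lower). The latter value lies near the floor, with 0, 2 and 1 Col22a1 counts in GFPtotal 1, 2 and 6. GFPtotal 3 and 4 held 22 and 29 of the GFPtotal counts. Col9a3, a chain of the cartilage FACIT type IX, stood at 0.696, 2.18 and 3.66 CPM in GFPtotal and 0, 0.672 and 0.759 CPM in GFPlow, with a log2 fold change of 2.13 and an adjusted p of 0.167. It shares 6.07% of its exon bases with Tcfl5 on the other strand, and strand was not used in the counting. Tcfl5 itself had 17 counts over the 12 libraries. Col20a1 had a log2 fold change of 0.11. Col9a1 had 0 counts in all libraries, and Col9a2 and Col19a1 had 8 and 15, so they were not tested.

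All 9 network genes were tested, of which 2 were called higher and 0 lower, with a median log2 fold change of 0.47. They encode the 6 chains of basement membrane type IV collagen and those of types VIII and X. The type IV genes lie in pairs that are read away from each other, Col4a1 with Col4a2, Col4a3 with Col4a4 and Col4a5 with Col4a6. Col4a1 (chr8:11198423-11312826) and Col4a2 (chr8:11312805-11449287) encode the chains found in most basement membranes. Their annotated 5′ ends overlap by 22 bases, and 71 bases separate Col4a3 from Col4a4 and 1308 bases Col4a5 from Col4a6.

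Col4a1 and Col4a2 are shown with their shared promoter because only Col4a1 passed the test while neither overlapped between groups. The windows are those of RefSeq on GRCm38.p6, chr8:11312777-11313076 on the minus strand for Col4a1 and chr8:11312555-11312854 on the plus strand for Col4a2, and they share 78 bases. Capitals mark CCAAT or GGGCGG or their reverse complements.
Col4a1: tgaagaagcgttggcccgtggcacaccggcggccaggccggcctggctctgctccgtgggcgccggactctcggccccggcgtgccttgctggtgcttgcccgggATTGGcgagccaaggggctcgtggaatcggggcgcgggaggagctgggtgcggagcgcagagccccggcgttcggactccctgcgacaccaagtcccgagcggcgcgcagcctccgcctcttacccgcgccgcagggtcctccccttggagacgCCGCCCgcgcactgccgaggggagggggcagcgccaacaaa
Col4a2: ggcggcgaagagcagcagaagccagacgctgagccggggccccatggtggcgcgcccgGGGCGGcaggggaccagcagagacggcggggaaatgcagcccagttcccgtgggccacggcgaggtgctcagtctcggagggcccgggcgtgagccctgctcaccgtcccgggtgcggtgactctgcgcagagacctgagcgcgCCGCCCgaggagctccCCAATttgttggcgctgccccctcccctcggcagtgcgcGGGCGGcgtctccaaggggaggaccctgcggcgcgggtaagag
The Col4a1 window held 1 match to each of CCAAT and GGGCGG, and the Col4a2 window 1 and 3. The capitals that start 10 bases into Col4a1 and 8 bases into Col4a2 are the same bases read on opposite strands.

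Col4a1 stood at 383, 423 and 608 CPM in GFPtotal and 162, 278 and 299 CPM in GFPlow (log2 fold change 0.76, SE 0.17, adjusted p = 0.0118, edgeR). The groups did not overlap, GFPtotal 4 was the highest of all libraries and GFPlow 1 the lowest. Without GFPtotal 3, 4 and 5 the value was 0.56 and no longer passed the test (adjusted p = 0.131), with total library size as the scaling it was 0.73 (adjusted p = 0.0505), and without GFPlow 6 it was 0.79 and passed. Col4a2 stood at 378, 404 and 635 CPM in GFPtotal and 223, 340 and 366 CPM in GFPlow (log2 fold change 0.47, SE 0.16, adjusted p = 0.101, edgeR). Its groups did not overlap either, with GFPtotal 4 highest and GFPlow 1 lowest again.

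Col4a5 (chrX:141475385-141689234, plus strand) encodes a chain of the mature glomerular and some smooth muscle basement membranes. It stood at 39.1, 59.0 and 116 CPM in GFPtotal and 16.1, 23.1 and 59.6 CPM in GFPlow (log2 fold change 1.26, SE 0.32, adjusted p = 0.0275, edgeR). GFPlow 1 at 59.6 CPM lay among the GFPtotal libraries, and the other GFPlow libraries reached at most 26.8 CPM. The call was lost in 9 of 21 alternatives, among them each fit without GFPtotal 3 or 5, without GFPlow 2, 3, 4, 5 or 6, and without GFPtotal 3, 4 and 5 (0.77, adjusted p = 0.343). On leaving out single libraries the value stayed at 1.00 to 1.62, with an adjusted p of at most 0.0902. Its neighbour Col4a6 was high in the same libraries. GFPtotal 3, 4 and 5 were at 18.4 to 28.2 CPM for Col4a6 and GFPtotal 1, 2 and 6 at 2.85 to 6.40 CPM, while GFPlow 1 was at 20.996 CPM and the other GFPlow libraries at most at 5.02 CPM (log2 fold change 0.97, SE 0.58, adjusted p = 0.383, edgeR). The direction of Col4a6 turned without GFPtotal 3, 4 and 5 (-0.44), and without GFPlow 1 the value was 1.73 (adjusted p = 0.056).

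Col4a3 and Col4a4, whose chains join Col4a5 in the glomerular membrane, did not pass the test. Col4a3 stood at 149, 314 and 492 CPM in GFPtotal and 183, 338 and 602 CPM in GFPlow (log2 fold change -0.22, SE 0.35, adjusted p = 0.788, edgeR). GFPtotal 3, 4 and 5 were at 149 to 183 CPM and GFPtotal 1, 2 and 6 at 445 to 492 CPM. GFPlow 1 was at the top of the lower range, GFPlow 5 above both ranges, and the other GFPlow libraries between them (304 to 438 CPM). Col4a4 was split in the same way, at 49.8 to 84.98 and 193 to 202 CPM, with a log2 fold change of 0.27. Part of the Col4a3 exons (5.65%) overlaps the antisense gene C430014B12Rik, so those reads cannot be told apart. Col8a1, Col8a2 and Col10a1 were at most 19.2 CPM in every library, with log2 fold changes of 0.92, -0.60 and -0.18 and overlapping groups.

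No gene of microfibrillar type VI collagen passed the test, although 4 of them stood among the 38 most abundant nuclear genes per length in both groups. All 6 genes were tested, 0 were called in either direction, and their median log2 fold change was -0.36, with values of -0.72 to -0.19. Col6a4, one of the genes for alternative chains that can take the place of alpha-3, ranked 23rd per length among nuclear genes in GFPtotal and 21st in GFPlow. It stood at 868, 1963 and 3357 CPM in GFPtotal and 1975, 2853 and 3202 CPM in GFPlow (log2 fold change -0.47, SE 0.35, adjusted p = 0.514, edgeR). GFPtotal 3, 4 and 5 were at 868 to 1021 CPM, below every GFPlow library, and GFPtotal 1, 2 and 6 at 2906 to 3357 CPM were within or above the GFPlow range.

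The same split ran through the genes of the standard type VI molecule. Col6a1 stood at 567, 904 and 1333 CPM in GFPtotal and 706, 1082 and 1383 CPM in GFPlow (log2 fold change -0.24, SE 0.22, adjusted p = 0.599, edgeR). Col6a2 stood at 794, 1539 and 2521 CPM in GFPtotal and 1516, 2141 and 2664 CPM in GFPlow (log2 fold change -0.46, SE 0.26, adjusted p = 0.335, edgeR). Col6a3, the largest chain of the molecule, stood at 1088, 2630 and 3645 CPM in GFPtotal and 1783, 2963 and 3392 CPM in GFPlow (log2 fold change -0.19, SE 0.27, adjusted p = 0.763, edgeR). In each, GFPtotal 3, 4 and 5 were below GFPtotal 1, 2 and 6, and the groups overlapped. Without GFPtotal 3, 4 and 5 the direction turned for Col6a1 (0.13), Col6a3 (0.28) and Col6a4 (0.14).

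Col6a6, another alternative chain, stood at 132, 283 and 429 CPM in GFPtotal and 408, 478 and 512 CPM in GFPlow (log2 fold change -0.72, SE 0.28, adjusted p = 0.155, edgeR). The libraries GFPtotal 3, 4 and 5 were far below the rest at 132 to 168 CPM, and GFPtotal 1 and 6 lay within the GFPlow range. It was called lower with total library size as the scaling (-0.89) and with limma-voom (-0.92), and without GFPtotal 3, 4 and 5 the value was -0.20 (adjusted p = 0.594). Col6a5 ranged from 10.4 to 25.8 CPM in GFPtotal and from 15.8 to 25.3 CPM in GFPlow, with a log2 fold change of -0.26.

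Transmembrane collagens had few counts. Of 4 genes 2 were tested and 0 called. Col23a1 stood at 0.267, 0.754 and 2.78 CPM in GFPtotal and 2.06, 3.61 and 8.28 CPM in GFPlow (log2 fold change -1.89, SE 0.65, adjusted p = 0.108, edgeR), and DESeq2 called it lower. Col25a1, which neurons are known to express, stood at 0.405, 0.978 and 8.15 CPM in GFPtotal and 0.380, 2.84 and 3.52 CPM in GFPlow (log2 fold change -0.12, SE 0.71, adjusted p = 0.95, edgeR). Col17a1, the hemidesmosome collagen of epithelia, had 82 counts in GFPtotal and 150 in GFPlow, and Col13a1 had 14 and 71, and neither was tested.

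Of the 5 remaining genes 3 were tested. Col15a1 (chr4:47208161-47313167, plus strand) encodes a multiplexin that links basement membranes to nearby fibrils. It stood at 302, 414 and 470 CPM in GFPtotal and 198, 246 and 293 CPM in GFPlow (log2 fold change 0.74, SE 0.14, adjusted p = 0.00464, edgeR). All GFPtotal libraries lay above all GFPlow libraries, the highest GFPlow library being GFPlow 6, and the value was 0.75 without GFPtotal 3, 4 and 5 and 0.80 without GFPlow 6. The related Col18a1, the source of endostatin, stood at 28.3, 32.6 and 61.3 CPM in GFPtotal and 27.9, 39.9 and 47.4 CPM in GFPlow (log2 fold change 0.03, SE 0.23, adjusted p = 0.965, edgeR). Its direction differed between scalings, with -0.0023 when mitochondrial genes were left out. Col7a1, the anchoring fibril collagen, stood at 16.4, 21.2 and 33.8 CPM in GFPtotal and 12.8, 20.3 and 38.1 CPM in GFPlow (log2 fold change 0.04, SE 0.27, adjusted p = 0.963, edgeR), and the value turned to -0.02 with total library size as the scaling. Col26a1 had 27 counts in GFPtotal and 134 in GFPlow, and Col28a1 had 109 and 47, and neither was tested.

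The classes were also compared by their share of the collagen transcripts in each library. Microfibrillar genes took 13.0% to 21.1% of the summed collagen RPKM in GFPtotal libraries and 30.4% to 33.3% in GFPlow libraries, and fibrillar genes 73.0% to 79.1% and 60.8% to 63.8%. Neither class overlapped between groups, but the shares of a library sum to 100%, so these differences are not independent of each other. As a share of all nuclear counts, microfibrillar genes overlapped (GFPtotal 0.632% to 1.71%, GFPlow 1.17% to 1.84%). They were at 1.52% to 1.71% in GFPtotal 1, 2 and 6, where fibrillar genes were at 5.52% to 6.21%, against 2.66% to 3.64% in GFPlow. In GFPtotal 3, 4 and 5 microfibrillar genes were at 0.632% to 0.916% and fibrillar genes at 3.74% to 4.20%. With the length of the longest protein-coding transcript, a setting chosen after seeing the data, the microfibrillar share ranged from 11.1% to 19.0% in GFPtotal and from 26.7% to 29.9% in GFPlow. The microfibrillar share was 13.0% to 17.9% in GFPtotal 3, 4 and 5 and 20.6% to 21.1% in GFPtotal 1, 2 and 6, so every GFPtotal library was below every GFPlow library in both subsets. FACIT genes took 0.299% to 0.925% in GFPtotal and 0.152% to 0.312% in GFPlow. The shares are a description of the libraries and were not tested.

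**Figure D4:**
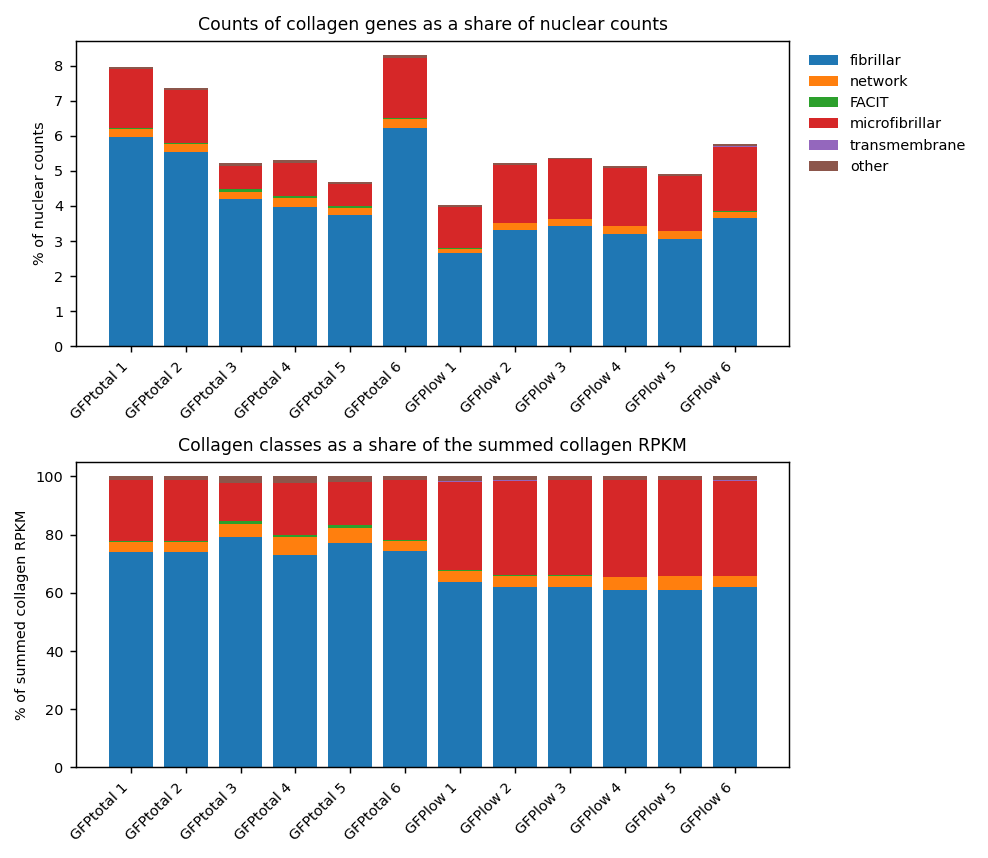
Collagen counts as a percentage of nuclear counts (top) and collagen classes as a percentage of the summed collagen RPKM (bottom), with 1 bar per library, GFPtotal left of GFPlow. In the upper panel GFPtotal 1, 2 and 6 reach 7.37% to 8.29% and GFPtotal 3, 4 and 5 stay at 4.69% to 5.30%, with GFPlow bars at 4.02% to 5.75%, and the microfibrillar share in the lower panel is smaller in every GFPtotal library than in any GFPlow library.

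Ratios of chains within a library do not depend on the scaling between libraries, and 8 were compared. The exact permutation test was two-sided and used all 924 ways to label the libraries, so its smallest possible p was 0.00216, and p-values were adjusted over the 8 ratios. None passed an adjusted p of 0.05, and the groups overlapped in all 8. The ratio of Col4a1 to Col4a2, whose chains join in the same molecule, was 0.712, 0.883 and 1.07 (lowest, median and highest) in GFPtotal and 0.643, 0.722 and 0.786 in GFPlow. The log2 difference was 0.30 (exact p = 0.0152, adjusted p = 0.0606). Only GFPtotal 6 lay within the GFPlow range of this ratio. Leaving out that library parts the groups, which fixes the exact p at its smallest possible value (0.37, adjusted p = 0.0173). That pass therefore adds no evidence of its own. Without GFPtotal 3, 4 and 5 the difference was 0.19 (adjusted p = 0.21, exact test with 84 labelings). On leaving out single libraries the adjusted p of the exact test reached 0.121.

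The ratio of Col6a1 to Col6a2 was 1.00, 1.12 and 1.36 in GFPtotal and 0.885, 0.928 and 1.03 in GFPlow (log2 difference 0.28, exact p = 0.00866, adjusted p = 0.0606). It passed the threshold on leaving out GFPtotal 4, GFPtotal 6 or GFPlow 5 alone, at 0.31 to 0.32. On leaving out other single libraries it did not pass, with an adjusted p of up to 0.121 (exact test). Without GFPtotal 3, 4 and 5 it was 0.20 (adjusted p = 0.143, exact test with 84 labelings). The ratio of Col15a1 to Col18a1 was 6.23, 14.5 and 16.7 in GFPtotal and 4.62, 7.09 and 10.2 in GFPlow (log2 difference 0.76, exact p = 0.0368, adjusted p = 0.0981). For type I collagen, a molecule of 2 alpha-1 chains and 1 alpha-2 chain, the Col1a1 to Col1a2 ratio was 2.25, 2.99 and 4.01 in GFPtotal and 2.25, 2.41 and 3.06 in GFPlow (log2 difference 0.22, exact p = 0.145, adjusted p = 0.193). This level rests on the length used, since the union of Col1a2 exons is 12426 bases and its longest protein-coding transcript 5348. With transcript lengths the medians were 1.43 in GFPtotal and 1.15 in GFPlow.

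The ratio of Col5a1 to Col5a2 was 0.320, 0.750 and 1.17 in GFPtotal and 0.836, 0.973 and 1.49 in GFPlow (log2 difference -0.68, exact p = 0.0909, adjusted p = 0.182). GFPtotal 3, 4 and 5 were at 0.320 to 0.630, below every GFPlow library. Col3a1 to Col1a1, Col6a3 to Col6a1 and Col8a1 to Col8a2 had log2 differences of -0.06, -0.01 and 1.35, with adjusted p of 0.911, 0.911 and 0.193 by the same exact test. Without GFPlow 5 the Col8a1 to Col8a2 difference was 1.97 (adjusted p = 0.0433, exact test).

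**Figure D5:**
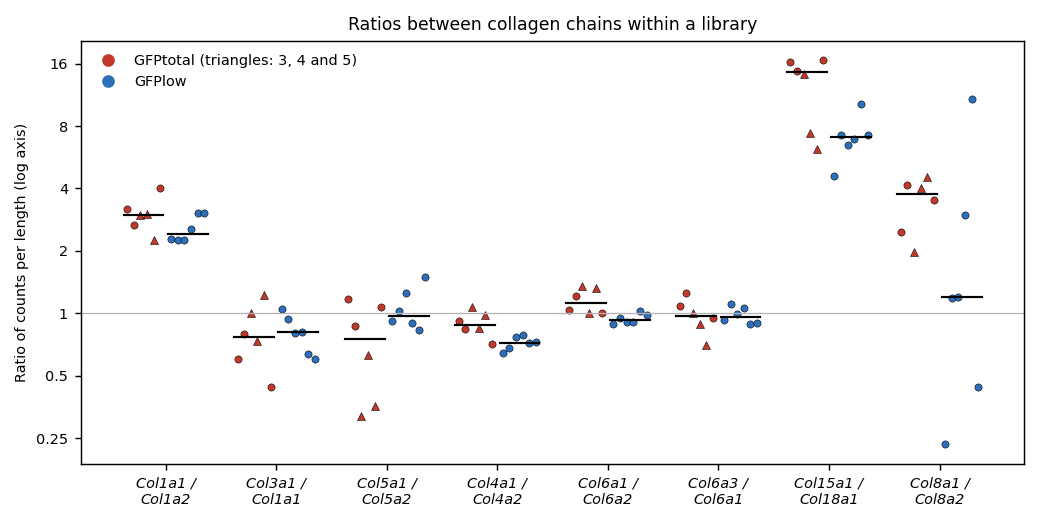
Ratio of counts per exon length of a pair of collagen genes within each library (log axis), GFPtotal left of GFPlow, with lines at group medians and triangles for GFPtotal 3, 4 and 5. The 2 groups overlap in all 8 ratios, and the Col4a1 to Col4a2 medians are 0.883 in GFPtotal and 0.722 in GFPlow.

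The genes that make and mature collagen were called about as often as all genes. Of 34 such genes 32 were tested, 2 (6.25%) were called higher, against 4.55% of all genes, and 0 lower, with a median log2 fold change of -0.04. P3h2, a prolyl 3-hydroxylase that modifies collagen chains, stood at 42.9, 71.2 and 126 CPM in GFPtotal and 24.9, 30.4 and 42.2 CPM in GFPlow (log2 fold change 1.24, SE 0.24, adjusted p = 0.00451, edgeR). Adamts3, a protease that removes the amino-terminal propeptide of fibrillar procollagens, stood at 16.5, 40.3 and 68.9 CPM in GFPtotal and 2.98, 12.2 and 14.2 CPM in GFPlow (log2 fold change 1.86, SE 0.36, adjusted p = 0.0055, edgeR). Neither gene overlapped between groups, but leaving out GFPtotal 3, 4 and 5 ended the call of P3h2 (0.86, adjusted p = 0.0777). The collagen chaperone gene Serpinh1 (58.4, 97.1 and 136 CPM in GFPtotal, 71.8, 121 and 176 CPM in GFPlow) and the cross-linking enzyme gene Lox (544, 649 and 965 CPM in GFPtotal, 171, 455 and 588 CPM in GFPlow) had log2 fold changes of -0.41 and 0.68 with adjusted p of 0.383 and 0.112.

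Of 11 collagen receptor genes 8 were tested, 4 were called higher, against 4.55% of all genes, and 0 lower, with a median log2 fold change of 0.76. Itga1, whose integrin binds type IV collagen by preference, stood at 38.3, 55.7 and 67.6 CPM in GFPtotal and 0.506, 2.60 and 5.08 CPM in GFPlow (log2 fold change 4.36, SE 0.44, adjusted p = 2.45e-05, edgeR). The groups did not overlap. Itgb1, the common beta subunit of the collagen-binding integrins, stood at 164, 178 and 230 CPM in GFPtotal and 113, 126 and 154 CPM in GFPlow (log2 fold change 0.54, SE 0.13, adjusted p = 0.0255, edgeR). Itga2, a further alpha subunit, stood at 47.9, 54.7 and 128 CPM in GFPtotal and 15.2, 27.0 and 55.5 CPM in GFPlow (log2 fold change 1.28, SE 0.33, adjusted p = 0.0297, edgeR), with GFPlow 6 as the GFPlow library within the GFPtotal range. Itga10, another, stood at 3.94, 8.14 and 10.9 CPM in GFPtotal and 1.75, 2.58 and 3.96 CPM in GFPlow (log2 fold change 1.51, SE 0.37, adjusted p = 0.0223, edgeR), with GFPtotal 1 and GFPlow 3 at about the same level. Of the 4, Itga1 (4.15) was called without GFPtotal 3, 4 and 5 and the others were not, at 0.39 to 1.30. Leaving out GFPtotal 3 or GFPlow 2 alone also ended the calls of Itga2, Itga10 and Itgb1, leaving out GFPtotal 4 or GFPlow 3 those of Itga2 and Itgb1, leaving out GFPlow 4 or 5 that of Itga2, and leaving out GFPtotal 5 that of Itga10. Their values on leaving out single libraries were 1.04 to 1.53 for Itga2, 1.39 to 1.65 for Itga10 and 0.48 to 0.60 for Itgb1, with an adjusted p of at most 0.0865. Ddr2, a receptor kinase for fibrillar collagen, had a log2 fold change of 0.52 and an adjusted p of 0.116. Lair1, Gp6 and Adgrg1 had 0, 16 and 16 counts over the 12 libraries and were not tested.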

How the data were processed

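RNA was measured in 12 libraries of sorted uterine cells, 6 GFPtotal and 6 GFPlow. The authors deposited raw counts per gene, made with featureCounts 1.6.4 over the exons of Ensembl release 84 genes on GRCm38 at a mapping quality of 10 or more and without strand, per the file headers. The submitters' processing notes also name cutadapt and SAMtools. No aligner was found in the labels or headers (not given in the sources used here). The table of the whole series matched the files of the 12 samples count for count, with 0 columns left unmapped. No pair of libraries in a group agreed within sampling noise (chi-square per degree of freedom of at least 19.5 in GFPtotal and 25.5 in GFPlow).

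After filterByExpr and TMM scaling, GFPtotal was compared with GFPlow by the robust quasi-likelihood test of edgeR 4.0.16 in R 4.3.3, two-sided and with no covariate. P-values were adjusted by Benjamini-Hochberg over all 14523 genes tested, with 0.05 as the threshold. The SE follows from the fold change and the F statistic. CPM use TMM-scaled library sizes, and RPKM divide them by the union of exons in the deposited table. Chain ratios added 0.5 to each count and compared log2 means. Scripts were tested on simulated data.

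Symbols came from a table matched by Ensembl identifier (47224 of 47729 genes), and coordinates are those of the files. Alternatives were the scaling, the filter, DESeq2 1.42.0, limma-voom (limma 3.58.1), the replicate block, leaving out each library, leaving out GFPtotal 3, 4 and 5 together, and, for chain ratios, a pseudocount of 2. Members and gene lists were chosen with earlier results of these data known. Every member is accounted for; called members and the 3 most abundant per length of each class are given in full (untested ones by their counts), with the called genes of the lists, and the other genes named were chosen after their values were seen. Promoter windows and their sequences are those of RefSeq on GRCm38.p6. No protein sequence was used here.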

Additional observations from a re-analysis of the deposited data

Results flagged for a closer look

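Among 100 groups of 6 libraries examined for a single library lying far from the other 5 (Dixon's ratio), 11 values lay far from the rest, in 5 different libraries. Independent values from a normal distribution would give about 1 in 20 groups. The groups here share libraries, and the ratios share genes with the single-gene groups, so the count cannot be set against that rate.

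GFPlow 1 held 6 of the 11. Col4a1 was at 162 CPM there, against 267 to 299 CPM in the other GFPlow libraries, and Col4a2 at 223 CPM, against 322 to 366. Col6a4 was at 1975 CPM, against 2766 to 3202, and Col27a1 at 84.5 CPM, against 102 to 109. The gene pair of the X chromosome lay on the high side. Col4a5 was at 59.6 CPM, against 16.1 to 26.8, and Col4a6 at 20.996 CPM, against 3.22 to 5.02.

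In GFPtotal, Col4a1 was at 608 CPM in GFPtotal 4, against 383 to 456 CPM in the others, and Col25a1 at 8.15 CPM in GFPtotal 3, against 0.405 to 2.76. Col25a1 was also at 0.380 CPM in GFPlow 6, the library whose header code differs from its title, against 2.37 to 3.52. Adamts3 was at 2.98 CPM in GFPlow 5, against 10.4 to 14.2, and the Col8a1 to Col8a2 ratio was 10.8 in GFPlow 5, against 0.233 to 2.97, on low counts. What sets these libraries apart was not tested.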

How the results depend on the processing

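Over 21 alternatives, the count of collagen genes called higher was 6 to 8. Col3a1, Col5a2, Col12a1, Col14a1 and Col15a1 were called in all 21, Col4a1 in 19 and Col4a5 in 12. The count called lower, 0, was 2 with total library size as the scaling, 3 with DESeq2, 2 with limma-voom (where 1.77%, 2.46% and 1.88% of all genes were called lower, against 0.854%), 1 without GFPtotal 3, 4 and 5 and 0 to 1 on leaving out single libraries. Collagen-making genes called lower were 0 to 1 on leaving out single libraries. Collagen receptors called higher, 4, were 2 with total library size, 1 without GFPtotal 3, 4 and 5 and 1 to 4 on leaving out single libraries.

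No label says whether the replicate numbers pair the libraries. Same-numbered libraries deviated from their group means with correlations of -0.14 to 0.089, and 2 of 6 matched their own number best. GFPtotal 3, 4 and 5 stood apart from the rest of their group, so these correlations cannot settle whether a number marks a pair. With the replicate block 7 of 36 tested collagen genes and 1 of 8 tested receptors (Itga1) were called higher, against 492 of all 14523 genes tested. In that edgeR fit the adjusted p of Itga2, Itga10 and Itgb1 was 0.0647, 0.0763 and 0.0697. Under the block Col24a1 was at 0.052 and Col18a1 at -0.028, both turned in direction.

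Other turns of direction were of genes that did not pass the test. Without GFPtotal 3, 4 and 5 the values were 0.20 for Col5a3, 0.20 for Col10a1, 0.32 for Col4a3, -0.44 for Col4a6, 0.021 for Col8a2, -0.55 for Col20a1, 0.13 for Col6a1, 0.28 for Col6a3, 0.14 for Col6a4, -0.46 for Col18a1 and -0.17 for Col7a1, and 0.16 for the Col6a3 to Col6a1 ratio. Col24a1 was at 0.040 with limma-voom, Col18a1 at -0.0015 with limma-voom and -0.0023 without mitochondrial genes, and Col7a1 at -0.025 with total library size. Leaving out single libraries gave ranges of -0.31 to 0.064 for Col10a1, -0.011 to 0.18 for Col16a1, -0.14 to 0.11 for Col18a1, -0.069 to 0.42 for Col20a1, -0.18 to 0.13 for Col24a1, -1.13 to 0.10 for Col25a1, -0.27 to 0.083 for Col5a3 and -0.11 to 0.26 for Col7a1. For the ratios they were -0.20 to 0.10 (Col3a1/Col1a1), -0.090 to 0.078 (Col6a3/Col6a1), 0.25 to 0.37 (Col4a1/Col4a2), 0.23 to 0.32 (Col6a1/Col6a2) and 0.86 to 1.97 (Col8a1/Col8a2), the last 3 passing an adjusted p of 0.05 in some of them. The causes were not tested. Depth limits the 8 untested members and those under about 1 CPM.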
